A study of Mus musculus with 6 samples.

Results

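The cytosolic ribosomal protein genes were followed across 6 RNA-seq libraries made from cells sorted out of mouse spleen cultures. Members were the genes of the deposited count table named Rpl or Rps plus a number, with or without a final a or x, together with Rplp0, Rplp1, Rplp2 and Rpsa, provided that they held at least 60 counts over the 6 libraries. By this rule 73 of the 21847 genes in the table were members, 46 of the large (60S) subunit and 27 of the small (40S) subunit. Rps12 with 3 counts and Rps13 with 16 counts fell well below the minimum, and Rpl18 with 75 counts lay just inside it. Ribosomal genes whose symbols have another form, such as Fau, Rack1, Rps3a1 and Rps27rt, were outside the rule.

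Qpos denotes the 3 libraries of cells that carried Qtracker, a fluorescent nanocrystal label. The label had been loaded into mesenchymal stromal cells (MSCs) of human cord tissue, and cells that carried it are recorded as having engulfed MSCs. Qneg denotes the 3 libraries of cells from the same kind of culture without the label. In both groups splenocytes depleted of T cells had been added to the plated human MSCs and kept with them for 3 days, so neither group is free of MSC contact. The series describes its triplicates as paired, and a pair here is the Qpos and the Qneg library of the same number. The labels call the cells splenic macrophages and describe the sort as CD11b+ but differ on the second marker, which is Ly6G- in the characteristics and Ly6C- in the protocol. No strain, age or sex of the mice is given in the sources used here.

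Each cytosolic ribosome joins a small subunit, which reads the messenger RNA, to a large subunit, which forms the peptide bonds. Nearly every ribosomal protein is present in 1 copy per ribosome, except the acidic stalk proteins Rplp1 and Rplp2, which are present in more. Transcripts of these genes are abundant in almost all cells, carry a run of pyrimidines at the 5′ end that lets growth signals through mTORC1 control their translation, and have left many processed pseudogenes in mammalian genomes. In macrophages and lymphocytes their level is known to move with growth and activation.

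Library totals were 42490705, 55506993 and 53656135 counts in Qpos cells and 33943090, 42259316 and 44061187 counts in Qneg cells. Replicate 1 stood apart from replicates 2 and 3 in both groups, most clearly in Qneg cells. For 12 macrophage markers the summed level was 28323, 36983 and 39342 CPM (counts scaled to a common library size on TMM-scaled totals) in Qpos cells, against 1066, 13402 and 13279.6 CPM in Qneg cells. The 14 B cell markers summed to 996, 1073 and 1000.3 CPM in Qpos cells, against 23895, 11140.0 and 11103 CPM in Qneg cells. The 14 neutrophil markers summed to 1473, 2201 and 2269 CPM in Qpos cells, against 3670 (replicate 1), 74800.4 and 75020.4 CPM in Qneg cells. No marker of these 3 lists was at 0 in a Qneg library. The Qneg libraries thus carried more B cell and neutrophil marker transcripts and fewer macrophage ones, and the part of this in the results below was not tested.

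Ribosomal protein transcripts took a smaller share of the counts in Qpos cells than in Qneg cells in every pair. The 73 members together held 2.06%, 1.39% and 1.46% of the library counts in Qpos cells, against 4.19%, 2.10% and 2.16% in Qneg cells. Qneg replicate 1 was far above the other 5 libraries, Qpos replicate 1 lay just below Qneg replicates 2 and 3, and the groups did not overlap. The mean share was 1.64 ± 0.369% in Qpos cells and 2.82 ± 1.19% in Qneg cells (SD, n = 3 each). The ratio of Qpos to Qneg was 0.492, 0.664 and 0.676 in pairs 1, 2 and 3. Counts on the mitochondrial genome, of which 2 genes are in the table, were also lower in Qpos cells in every pair. Within the Qpos libraries they followed another order than the member share. They held 0.0221%, 0.0402% and 0.0487% of the counts in Qpos cells, against 0.0765%, 0.0643% and 0.0704% in Qneg cells, without overlap. With these counts left out of the totals the members held 2.06%, 1.39% and 1.46% in Qpos cells, against 4.20%, 2.10% and 2.16% in Qneg cells. Counting error was small beside the difference, with a 95% Wilson interval of 2.06 to 2.07% in Qpos replicate 1 and 4.19 to 4.20% in Qneg replicate 1. In bulk RNA a lower share of a cell type and less RNA per cell cannot be told apart.

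**Figure D1:**
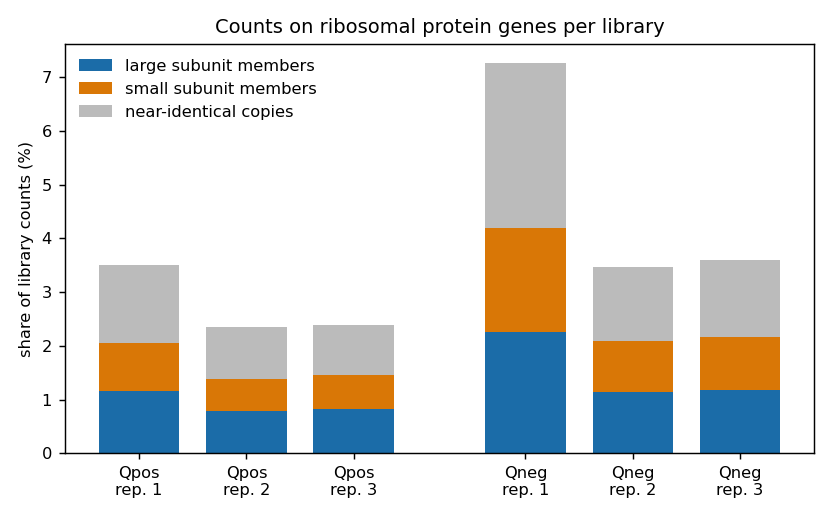
Stacked bars give the share of each library's counts, in percent, on large subunit members, small subunit members and their near-identical copies elsewhere in the genome, for Qpos replicates 1 to 3 (left) and Qneg replicates 1 to 3 (right). The coloured part of the bar, the members alone, reaches 4.19% in Qneg replicate 1 and 1.39 to 2.16% in the other 5 libraries.

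Both subunits took part. Large subunit members held 1.17%, 0.786% and 0.821% of the counts in Qpos cells, against 2.27%, 1.15% and 1.18% in Qneg cells. Small subunit members held 0.894%, 0.606% and 0.640% in Qpos cells, against 1.92%, 0.949% and 0.978% in Qneg cells. The balance between the subunits differed by little, with the large subunit making up 56.6%, 56.5% and 56.2% of all member counts in Qpos cells, against 54.1%, 54.8% and 54.8% in Qneg cells. These values did not overlap between the groups, the Qpos libraries being the higher in large subunit share.

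Gene by gene, 72 members could be tested, because Rpl18 did not pass the filter on low counts. In edgeR's quasi-likelihood test with the replicate number as a block, 9 of the 72 members were called lower in Qpos cells at a Benjamini-Hochberg adjusted p under 0.05, that is 12.5% of them, beside 16.3% of all 14605 genes tested. None was called higher, beside 18.5% of all genes. The share of members called lower is thus near that of any genes, while the members' direction was one-sided. The fitted log2 fold change was below 0 for 64 of the 72 members, with a median of -0.40, against -0.01 over all genes tested. At an unadjusted p under 0.05 the same test had 31 members lower and 0 higher, beside 24.5% of all genes lower and 25.8% higher, and DESeq2, limma-voom and the authors' normalized table also called 0 members higher. Of the 72 members, 54 were lower in Qpos cells in all 3 pairs, beside 36.0% of all genes tested. The CPM values of the groups did not overlap for 13 members, all with Qpos lower, while such a gap with Qpos lower was found for 29.4% of all genes. With 22 further members at adjusted p values from 0.05 to 0.1, the number called depended on small differences in p, and other tools drew the line elsewhere. DESeq2 called 36 members lower, beside 25.1% of all genes lower and 23.4% higher, and limma-voom called 16, beside 19.5% lower and 20.6% higher. Without the replicate block edgeR called 1 member lower, beside 20.9% of all genes. Without a filter on low counts edgeR called 1 member lower, beside 9.20% of all genes, and with at least 50 counts in 3 libraries it called 20, beside 17.8%.

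**Figure D2:**
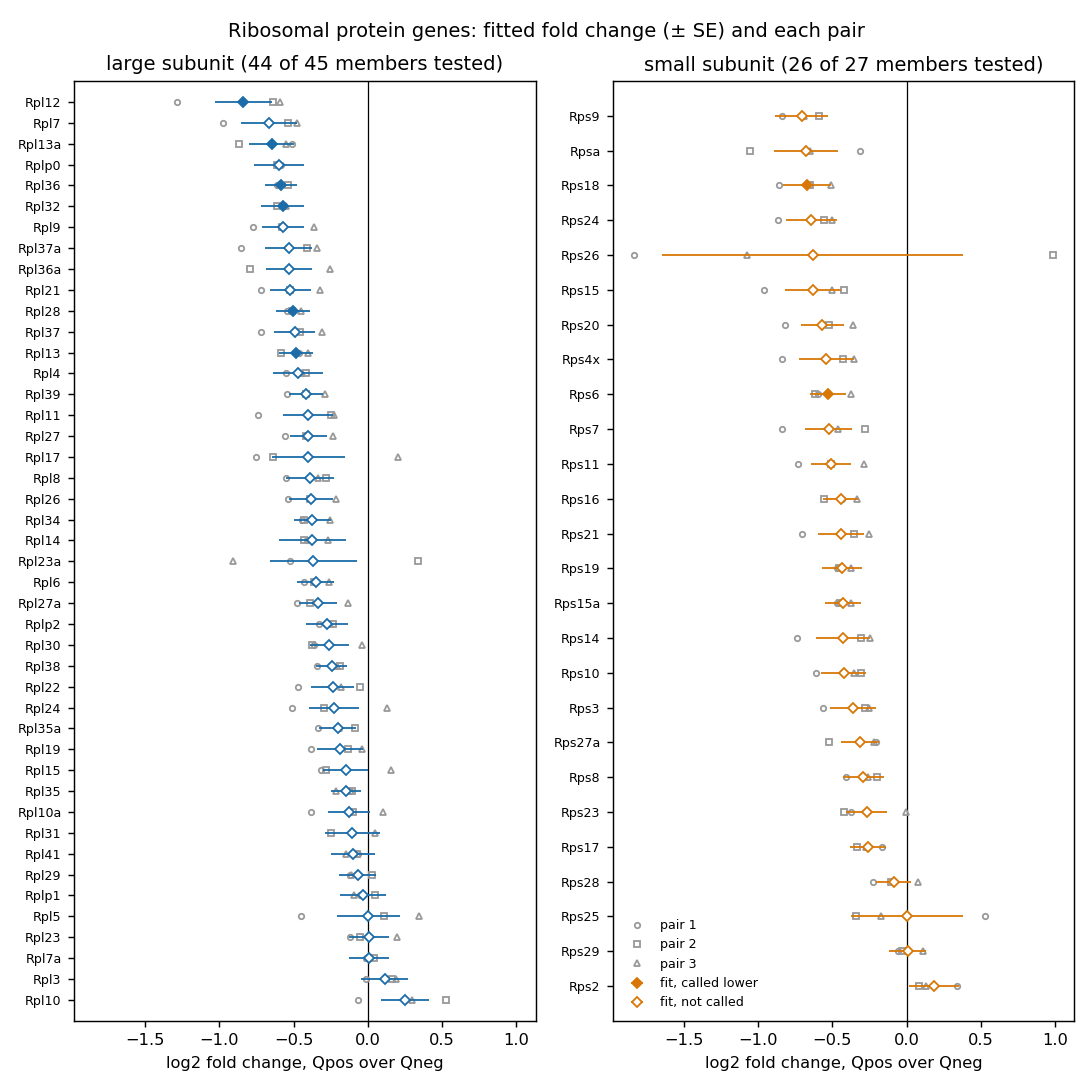
Each row is a ribosomal protein gene (large subunit left, small subunit right, 1 tested member of each not drawn), sorted by the fitted log2 fold change of Qpos over Qneg on the x axis. Diamonds with bars give the fitted value ± SE, filled where the adjusted p was under 0.05, and open grey symbols give pairs 1 to 3. Most diamonds lie below 0, and Rpl10 and Rps2 lie farthest above 0 at 0.25 and 0.19, though both are below 0 with library totals alone.

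Within the large subunit, 6 of the 45 members tested were called lower, namely Rpl12, Rpl13a, Rpl36, Rpl32, Rpl28 and Rpl13. Rpl12 sits at the base of the stalk on which translation factors dock. It was at 32.6, 19.0 and 19.7 CPM in Qpos cells, against 79.5, 29.7 and 29.7 CPM in Qneg cells. Qneg replicate 1 was far above every other library and Qpos replicate 1 lay above Qneg replicates 2 and 3, so the groups overlapped although each pair was lower in Qpos cells. The log2 fold change of Rpl12 was -0.84 ± 0.19 (SE, adjusted p = 0.0434), and without replicate 1 it was -0.61 (adjusted p = 0.000571). The fit without replicate 1 called 35.8% of all genes lower, and its p-values measure only the spread between replicates 2 and 3.

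Rpl36, a structural protein of the large subunit, had the smallest adjusted p of all members. Its level was 159, 78.5 and 74.4 CPM in Qpos cells, against 244, 114 and 113 CPM in Qneg cells. Its pairs were alike, at -0.61, -0.54 and -0.60, with replicate 1 well above the others in both groups, so that the groups overlapped. The fitted log2 fold change was -0.58 ± 0.11 (SE, adjusted p = 0.0293). Rpl32 was at 659, 339 and 363 CPM in Qpos cells, against 976, 517 and 531 CPM in Qneg cells. It too fell by nearly the same amount in each pair (log2 fold change -0.58 ± 0.14 SE, adjusted p = 0.0491).

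Rpl13a is a large subunit protein that in human monocytic cells is also known to leave the ribosome and silence inflammatory transcripts. It was present at 12.3, 6.37 and 8.39 CPM in Qpos cells, against 17.6, 11.7 and 12.3 CPM in Qneg cells. Here pair 2 moved most and Qpos replicate 1 lay within the range of the Qneg libraries, so the groups overlapped, with a log2 fold change of -0.65 ± 0.15 (SE, adjusted p = 0.0453). Rpl28 was the only called large subunit member whose groups did not overlap, at 182, 128 and 138 CPM in Qpos cells, against 266, 183 and 189 CPM in Qneg cells (log2 fold change -0.50 ± 0.11 SE, adjusted p = 0.0423). Rpl13 was at 121, 79.3 and 93.6 CPM in Qpos cells, against 167, 119 and 124 CPM in Qneg cells, where the Qpos library of replicate 1 lay between the Qneg libraries (log2 fold change -0.49 ± 0.11 SE, adjusted p = 0.0437).

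The 3 stalk proteins differed from each other. Rplp0, which anchors the stalk to the large subunit, was at 1251, 936 and 945 CPM in Qpos cells, against 1875, 1428 and 1436 CPM in Qneg cells. All Qneg libraries were above all Qpos libraries and the pairs lay at -0.58, -0.61 and -0.60, yet the log2 fold change of -0.60 ± 0.17 (SE, adjusted p = 0.0652) missed the threshold. Rplp1, one of the acidic proteins bound to Rplp0, was at 1064, 606 and 588 CPM in Qpos cells, against 1104, 585 and 626 CPM in Qneg cells, with the groups interleaved and a log2 fold change of -0.032 ± 0.15 (SE, adjusted p = 0.882). Its partner Rplp2 was at 604, 410.2 and 419 CPM in Qpos cells, against 760.2, 483 and 499 CPM in Qneg cells, lower in Qpos cells in every pair but not called (log2 fold change -0.27 ± 0.14 SE, adjusted p = 0.199).

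Rpl5 and Rpl11 travel to the ribosome together with 5S rRNA, and outside the ribosome the same complex is known to bind Mdm2 and stabilise p53. Rpl11 was at 211, 165 and 176 CPM in Qpos cells, against 354, 195 and 207 CPM in Qneg cells. Qneg replicate 1 alone was well above the rest and the groups overlapped (log2 fold change -0.41 ± 0.17 SE, adjusted p = 0.138). Rpl5 was at only 11.9, 11.2 and 14.5 CPM in Qpos cells, against 16.3, 10.4 and 11.4 CPM in Qneg cells, with pair 1 below 0 and pairs 2 and 3 above it (log2 fold change 0.0019 ± 0.21 SE, adjusted p = 0.995). For Rpl5 nearly all reads of the family were assigned to copies, as given below.

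A few large subunit members lay at or above 0. Rpl10, which joins the subunit in one of the last steps of its assembly, was at 80.4, 103 and 85.8 CPM in Qpos cells, against 84.1, 71.2 and 69.9 CPM in Qneg cells, higher in Qpos cells in pairs 2 and 3 and slightly lower in pair 1. Its fitted log2 fold change of 0.25 ± 0.16 (SE, adjusted p = 0.280) was the highest among the members and was not called. Of the summed counts of Rpl10 and its copies, 90.2% were assigned to copies. Rpl10 itself held 12.9% of the sum in Qpos replicate 2, against 8.25 to 9.96% in the other libraries. The sum had a log2 fold change of 0.10 ± 0.15 (SE, adjusted p = 0.628), with pairs at 0.023, 0.10 and 0.18. Rpl3, which reaches toward the peptidyl transferase centre, was at 1006, 675 and 689.8 CPM in Qpos cells, against 1014, 603 and 605 CPM in Qneg cells. Its replicate 1 libraries were nearly equal and the other pairs were slightly higher in Qpos cells (log2 fold change 0.11 ± 0.16 SE, adjusted p = 0.596). Rpl3 itself held 83.9%, 85.8% and 86.3% of the summed counts with its copies in Qpos cells, against 77.9%, 82.7% and 80.9% in Qneg cells. Its sum had a log2 fold change of 0.022 ± 0.16 (SE, adjusted p = 0.921). On their own counts Rpl10 and Rpl3 were both below 0 with library totals alone. Without replicate 1, Rpl10 and Rpl3 were called higher with TMM, at log2 fold changes of 0.42 and 0.19 with adjusted p values of 0.00229 and 0.00806 in edgeR's test. That fit called 37.1% of all genes higher, and its p-values measure only the spread between replicates 2 and 3.

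Rpl22 and Rpl38, large subunit members known for functions of their own, were not called. Rpl22, whose loss in mice blocks the development of alpha beta T cells, was at 222, 166 and 155 CPM in Qpos cells, against 307, 172 and 175 CPM in Qneg cells (log2 fold change -0.24 ± 0.14 SE, adjusted p = 0.265). Rpl38, whose loss in mice alters the axial skeleton, was at 81.7, 52.1 and 52.3 CPM in Qpos cells, against 104, 59.2 and 60.3 CPM in Qneg cells (log2 fold change -0.24 ± 0.11 SE, adjusted p = 0.147). Neither separated the groups, since Qpos replicate 1 was above Qneg replicates 2 and 3 in both. Rpl36a, which lies on the X chromosome, was lower in all 3 pairs at 31.7, 17.5 and 27.3 CPM in Qpos cells, against 46.0, 30.4 and 32.7 CPM in Qneg cells and missed the threshold (log2 fold change -0.53 ± 0.15 SE, adjusted p = 0.0660). Adding its named pseudogenes turned this to 0.043.

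Rpl35a, Rpl19, Rpl35 and Rpl41, all lower in Qpos cells in every pair, had log2 fold changes of -0.20, -0.19, -0.15 and -0.098, and none was called. Rpl41 encodes the shortest ribosomal protein and was at 892, 529 and 518 CPM in Qpos cells, against 936, 557 and 575 CPM in Qneg cells.

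Of the 27 small subunit members tested 3 were called lower, among them Rps18 and Rps6. Rps18, a protein of the head of the small subunit, was at 571, 337 and 386 CPM in Qpos cells, against 1036, 528 and 548 CPM in Qneg cells, with Qpos replicate 1 above Qneg replicates 2 and 3 (log2 fold change -0.67 ± 0.16 SE, adjusted p = 0.0461). Rps6 is the classical substrate of the S6 kinases downstream of mTORC1. It was at 159, 103 and 122 CPM in Qpos cells, against 241, 158 and 158 CPM in Qneg cells, so that Qpos replicate 1 only just exceeded the lower Qneg libraries (log2 fold change -0.53 ± 0.12 SE, adjusted p = 0.0448).

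Rps9 and Rpsa differed by about as much as Rps18 without being called. Rps9, an early assembling protein of the subunit body, was at 1070.4, 864 and 858 CPM in Qpos cells, against 1916, 1303 and 1386 CPM in Qneg cells. The groups did not overlap, and the adjusted p missed the threshold by little (log2 fold change -0.71 ± 0.18 SE, adjusted p = 0.0505). Rpsa, which was also described as a laminin receptor precursor, was at 7.85, 4.97 and 6.09 CPM in Qpos cells, against 9.79, 10.4 and 9.58 CPM in Qneg cells, again without overlap (log2 fold change -0.68 ± 0.22 SE, adjusted p = 0.0808).

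Rps3, which lines the entry of the messenger RNA channel and also acts in DNA repair, was at 480.5, 391 and 399 CPM in Qpos cells, against 709, 474 and 475 CPM in Qneg cells (log2 fold change -0.36 ± 0.15 SE, adjusted p = 0.143). Rps19 and Rps14, both needed for pre-rRNA processing and known from inherited or acquired human anaemias, were lower in every pair, at log2 fold changes of -0.43 ± 0.13 (SE, adjusted p = 0.0758) and -0.43 ± 0.18 (SE, adjusted p = 0.142). Rps19 averaged 360.1 ± 110.4 CPM in Qpos cells and 489 ± 161 CPM in Qneg cells (SD, n = 3 each), and Rps14 averaged 507 ± 75.9 CPM in Qpos cells and 705 ± 249 CPM in Qneg cells (SD, n = 3 each). For both genes the spread among the Qneg libraries came mainly from replicate 1.

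Rps27a is made as a fusion with ubiquitin. Its levels were 111, 81.1 and 102 CPM in Qpos cells, against 128, 116 and 118 CPM in Qneg cells, without overlap and with pair 2 the largest (log2 fold change -0.31 ± 0.13 SE, adjusted p = 0.132). X-linked Rps4x was at 697, 509 and 545 CPM in Qpos cells, against 1249, 684 and 697 CPM in Qneg cells, where Qneg replicate 1 stood alone (log2 fold change -0.54 ± 0.19 SE, adjusted p = 0.0945). Rps2, near the entry of the messenger RNA channel, was the only one of the 72 members higher in Qpos cells in all 3 pairs with TMM. It was at 1489, 844 and 886 CPM in Qpos cells, against 1175, 796 and 809 CPM in Qneg cells, and its log2 fold change of 0.19 ± 0.17 (SE, adjusted p = 0.435) was not called and turned to -0.16 with library totals alone. Without replicate 1 it was 0.12 (adjusted p = 0.0425), in a fit that called 37.1% of all genes higher.

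Rps26 and Rps25 were near the lower end of the counts. Rps26 was at 0, 0.978 and 0.486 CPM in Qpos cells, against 0.115, 0.470 and 1.07 CPM in Qneg cells, with 1 library at 0 and pairs in opposite directions, and no direction could be given (log2 fold change -0.63 ± 1.01 SE, adjusted p = 0.649). Rps25 was at 0.846, 0.591 and 0.739 CPM in Qpos cells, against 0.573, 0.761 and 0.838 CPM in Qneg cells, with the groups interleaved (log2 fold change 0.001 ± 0.38 SE, adjusted p = 0.998). For Rps26 49.3% of the counts of gene and copies were assigned to copies, and the sum stayed low. The Rps26 sum was at 0.318, 1.52 and 0.882 CPM in Qpos cells, against 1.15, 0.985 and 1.44 CPM in Qneg cells. For Rps25 98.9% were assigned to copies, so its low level also reflects how the reads were divided. The sum of Rps25 and its copies was at 73.6, 58.3 and 58.4 CPM in Qpos cells, against 87.0, 56.3 and 60.1 CPM in Qneg cells (log2 fold change -0.077 ± 0.12 SE, adjusted p = 0.631).

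The other 38 members tested were not called either, and 35 of them lay below 0. In the large subunit these were 24 genes with a median log2 fold change of -0.38, from -0.66 for Rpl7 to 0.011 for Rpl7a, and 15 of them went the same way in all 3 pairs. In the small subunit they were 14 genes with a median of -0.44, from -0.64 for Rps24 to 0.0066 for Rps29, and 12 went the same way in all 3 pairs. The ends of these ranges, and the genes that follow, were picked after their values were seen. Rpl7, a large subunit protein, was at 546, 493 and 543 CPM in Qpos cells, against 1075, 718 and 755 CPM in Qneg cells (log2 fold change -0.66 ± 0.19 SE, adjusted p = 0.0635). Rps24, a small subunit protein mutated in some cases of inherited human anaemia, was at 665, 502 and 536 CPM in Qpos cells, against 1213, 737 and 761 CPM in Qneg cells (log2 fold change -0.64 ± 0.17 SE, adjusted p = 0.0571). All Qneg libraries lay above all Qpos libraries for both, with Qneg replicate 1 the highest. The same gap was found without a call for Rpl9, Rpl27, Rps7 and Rps16, at log2 fold changes of -0.57, -0.40, -0.53 and -0.44. Rpl7a and Rps29 instead had interleaved groups, Rpl7a at 521, 416 and 423 CPM in Qpos cells, against 524, 403 and 424 CPM in Qneg cells and Rps29 at 345, 224 and 259.9 CPM in Qpos cells, against 358, 229 and 241 CPM in Qneg cells.

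Medians of the fitted log2 fold change were -0.37 over the 45 large subunit members and -0.44 over the 27 small subunit members, a gap smaller than the spread within either subunit. The interquartile range was -0.50 to -0.15 for large subunit members and -0.60 to -0.30 for small subunit members. Over all 72 members, 16 lay between -0.2 and 0.2. Mean levels reached 1312 CPM (Rplp0), with a median of 173 CPM. Per kilobase of transcript, and on own counts alone, Rplp0, Rplp1 and Rps9 were highest at 1536, 1528 and 1497 CPM per kb, and Rps26 and Rps25 were among the lowest at 0.764 and 1.26 CPM per kb.

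Fold change had only weak rank correlations with other properties of the members. Across the 72 members, which share the same libraries and fit, Spearman's rho between the fitted log2 fold change and transcript length was -0.0854. It was 0.0231 with GC content, -0.0542 with mean level and 0.199 with the share of the summed counts that lay on copies. The order of the members was partly shared between pairs, with rho of 0.568 between pairs 1 and 2, 0.642 between pairs 1 and 3 and 0.582 between pairs 2 and 3. Members are not independent replicates, so these values only describe the set.

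Replicate 1 shaped the size of the difference. Of the 72 members, 66 had their highest value in Qneg replicate 1, and 52 had their lowest log2 fold change in pair 1. Replicate 1 was also the highest of the Qpos libraries for 64 members. The median of the members was -0.51, -0.39 and -0.26 in pairs 1, 2 and 3, with 70, 63 and 60 members below 0. Leaving replicate 1 out gave a median of -0.30 and called 48 members lower and 3 higher, in a fit that called 72.9% of all genes, 35.8% lower and 37.1% higher. All 9 members called with 3 pairs were among those called lower without replicate 1. Leaving out replicate 2 or replicate 3 instead gave medians of -0.39 and -0.46 and called 0 members in edgeR's test, with 1 member at an unadjusted p under 0.05 in each, beside 30.0% and 28.4% of all genes. Those fits called 2.10% and 0.00% of all genes, while DESeq2 without replicate 3 called 21.7% of all genes. Replicates 2 and 3 were far closer to each other than to replicate 1 in both groups. They still differed by more than counting noise alone. In Qneg cells the chi-square was 4.31 per gene between replicates 2 and 3, against 726 to 729 for either against replicate 1. In Qpos cells it was 21.2, against 222 to 223. The fit without replicate 1 rests on these close replicates, so its p-values measure only the spread between them. With replicates 2 and 3 summed, edgeR called 0 of all genes.

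Scaling set how far below 0 the members lay. With TMM the fitted median over members was -0.40, with RLE factors -0.44, -0.54 with upper quartile factors and -0.75 when only library totals were used. All genes tested had medians of -0.01, -0.05, -0.15 and -0.36 under the same scalings. A scaling shifts all genes of a library alike, so the difference between the members' median and that of all genes, -0.39 under each of these 4 scalings, is nearly fixed by construction. It was farthest from 0 in pair 1 and nearest to 0 in pair 3 under each of them. The 4 members that TMM put highest, Rpl10, Rps2, Rpl3 and Rpl7a, were below 0 with library totals alone, where the same common shift put all 72 members below 0. The number called lower was 9 with TMM, 13 with RLE factors, 16 with the upper quartile and 34 using library totals alone, beside 16.3%, 17.0%, 18.1% and 22.7% of all genes.

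**Figure D3:**
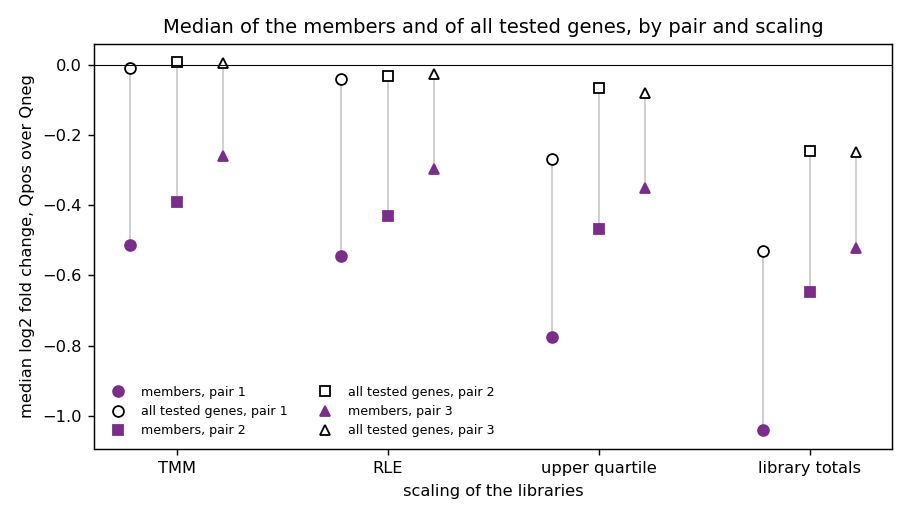
Filled symbols give the median log2 fold change of Qpos over Qneg over the 72 members and open symbols that over all 14605 genes tested, for pairs 1 to 3, under 4 scalings on the x axis. The filled symbols lie below the open ones in every pair and scaling, from -0.26 in pair 3 with TMM to -1.04 in pair 1 with library totals.

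How reads were divided between a ribosomal protein gene and its copies bears on the level of many members. The counts come from Salmon, which divides reads that match several transcripts. A copy was taken as a gene with a transcript at least 95% identical to a member over at least 50% of the copy. There were 404 such genes in the table, 394 of them annotated as processed pseudogenes, and 66 members had at least 1. For 35 members more than 50% of the summed counts sat on copies, and for 10 members more than 90%. Rps12 and Rps13, below the count minimum on their own, are cases of this, since Rps12l1 held 107485 counts and Rps13-ps2 held 88061.

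Rps6 shows what the sequences look like. The stretch from coding base 208 to 297 of Rps6 (chr4:86854660-86857412, minus strand, GRCm38) is set here beside the matching stretch of the processed pseudogenes Rps6-ps4 (chr2:75191073-75191822, minus strand) and Rps6-ps1 (chr15:76337616-76338362, plus strand), read from GENCODE M21 transcripts, with differences from Rps6 in capitals.
Rps6: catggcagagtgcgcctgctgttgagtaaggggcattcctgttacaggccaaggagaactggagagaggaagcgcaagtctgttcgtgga
Rps6-ps4: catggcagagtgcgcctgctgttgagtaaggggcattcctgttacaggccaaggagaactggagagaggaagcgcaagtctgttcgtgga
Rps6-ps1: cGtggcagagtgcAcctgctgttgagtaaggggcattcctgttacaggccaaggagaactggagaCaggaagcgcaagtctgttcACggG
Rps6-ps4 has no difference from Rps6 here, and it held 170955 counts over the 6 libraries, against 41789 on Rps6 itself. Rps6-ps1 has 6 differences in these 90 bases, a stretch chosen for the most differences in this copy, and held 102 counts.

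The same holds for Rps12 (chr10:23785183-23787275, minus strand), shown from coding base 22 to 111 beside Rps12l1 (chr7:56014016-56014414, plus strand) and Rps12-ps10 (chr2:122219993-122220391, plus strand).
Rps12: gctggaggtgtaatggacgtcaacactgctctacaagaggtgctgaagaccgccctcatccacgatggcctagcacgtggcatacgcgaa
Rps12l1: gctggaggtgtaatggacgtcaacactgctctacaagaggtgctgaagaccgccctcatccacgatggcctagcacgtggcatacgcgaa
Rps12-ps10: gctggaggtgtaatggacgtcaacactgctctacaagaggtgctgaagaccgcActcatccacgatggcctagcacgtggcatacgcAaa
A further copy, Rps12-ps3, is also identical to Rps12 over the aligned length and held 22831 counts. Rps12l1 and Rps12-ps3 thus took 82.3% and 17.5% of the counts on Rps12 copies, Rps12 itself had 3, and Rps12-ps10 with 2 differences in this stretch had 243. The stretch was likewise chosen for the most differences in Rps12-ps10. Reads from identical stretches cannot be told apart, so the division between gene and copy is that of the authors' counting.

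Adding the counts of the copies to their member gave the same direction. Members and all copies, those of Rps12 and Rps13 included, then held 3.50%, 2.35% and 2.39% of the counts in Qpos cells, against 7.26%, 3.48% and 3.59% in Qneg cells. Copies made up 41.1%, 40.7% and 39.0% of these sums in Qpos cells, against 42.2%, 39.7% and 39.9% in Qneg cells. Within families the division could differ between libraries. The member itself held 22.2%, 14.6% and 6.48% of the summed counts of Rpl23a in Qpos cells, against 18.5%, 7.98% and 7.98% in Qneg cells. Rps24-ps3 held 6608, 1263 and 41 counts in Qpos cells, against 13559, 399 and 1083 counts in Qneg cells. The fold change turned sign as a sum for 3 members, Rpl5, Rpl7a and Rps25, all within 0.02 of 0 on their own counts. In this fit 10 of 75 sums, now with Rpl18, Rps12 and Rps13, were called lower and 0 higher, beside 16.7% of all genes lower and 18.6% higher. An unadjusted p under 0.05 was found for 38 sums with Qpos lower and 0 with Qpos higher, beside 24.9% and 25.9% of all genes. The median was -0.44, 70 of the 75 were below 0, and 65 were lower in all 3 pairs. The groups did not overlap for 7 sums, all with Qpos lower, against 13 of the 72 members on own counts. On own counts such a gap was found for 29.4% of all genes. Rpl28, Rps24, Rps27a, Rpl27, Rps7 and Rps16 had no overlap on their own counts but overlapped as sums. Of the 9 members called on their own counts, 5 were called as sums and 4 were not (Rpl12, Rps6, Rpl28 and Rpl13). As sums, Rpl12 was at -0.58 (adjusted p = 0.0517), Rps6 at -0.59 (adjusted p = 0.0564), Rpl28 at -0.56 (adjusted p = 0.0548) and Rpl13 at -0.55 (adjusted p = 0.0683), so the last 3 were slightly farther from 0 than on their own counts. With copies added and replicate 1 left out, 59 members were called lower and 3 higher, beside 36.7% and 37.5% of all genes. Both fits were chosen after seeing the data.

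For Rpsa 96.8% of the summed counts were on copies. Its sum was 233, 174 and 148 CPM in Qpos cells, against 445, 257 and 268 CPM in Qneg cells, with no overlap and a log2 fold change of -0.78 ± 0.15 (SE, adjusted p = 0.0291). Rpl23a, whose own counts went in opposite directions in pairs 2 and 3, gave a sum of 747, 496 and 467 CPM in Qpos cells, against 1292, 719.6 and 717 CPM in Qneg cells, lower in each pair (log2 fold change -0.65 ± 0.16 SE, adjusted p = 0.0472). Rpl5 changed sign as a sum, at 704, 497 and 508 CPM in Qpos cells, against 1007, 573 and 602 CPM in Qneg cells, without being called (log2 fold change -0.32 ± 0.16 SE, adjusted p = 0.187). Rpl39 and Rps7 were also called lower as sums but not on their own counts. Rps9, which has no copy, crossed the threshold as well, at an adjusted p of 0.0472 in this fit. Across the 72 members Pearson's r between the fold change of the own counts and of the sum was 0.932, which the shared counts contribute to.

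**Figure D4:**
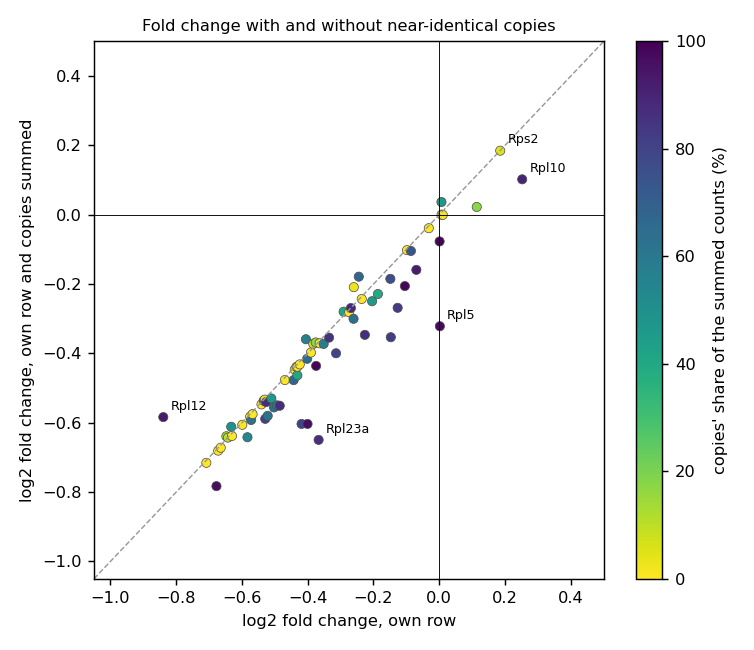
Each point is a ribosomal protein gene (2 tested members are not drawn), with the log2 fold change of Qpos over Qneg from its own counts on the x axis and from the sum with its near-identical copies on the y axis, coloured by the share of the summed counts that lies on copies (percent). Most points lie near the dashed line of equal values, and Rpl12, Rpl23a and Rpl5 lie away from it.

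The pyrimidine run known from this class of transcript was looked for at the annotated starts of the genes. Windows of 30 bases from 10 before to 20 after the annotated start were read from the RefSeq promoter table (GRCm38.p6), which had entries for 52 of the 72 members tested. The longest run of C and T that begins with C and has at least 6 bases is in capitals. The first 6 are the members called lower that had an entry. The last 4 were picked by hand from the 46 members with an entry that were not called.
Rps6, chr4:86857348-86857377, minus strand: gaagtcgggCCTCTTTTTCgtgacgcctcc
Rps18, chr17:33955646-33955675, minus strand: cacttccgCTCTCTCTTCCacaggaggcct
Rpl28, chr7:4792955-4792984, plus strand: tctcgtgtCTCTCTTTCCgtctccggccgc
Rpl13a, chr7:45128726-45128755, minus strand: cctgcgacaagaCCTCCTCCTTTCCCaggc
Rpl12, chr2:32961702-32961731, plus strand: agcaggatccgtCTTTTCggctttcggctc
Rpl13, chr8:123102340-123102369, plus strand: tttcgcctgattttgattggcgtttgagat
Rpl38, chr11:114668570-114668599, plus strand: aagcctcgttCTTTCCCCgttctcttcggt
Rplp2, chr7:141447641-141447670, plus strand: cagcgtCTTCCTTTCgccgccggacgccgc
Rps2, chr17:24720053-24720082, plus strand: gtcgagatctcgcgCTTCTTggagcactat
Rpl10, chrX:74270806-74270835, plus strand: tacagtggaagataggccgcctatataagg

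Such a run, searched on the gene's own strand, lay in the window of 29 of the 52 members, 55.8%, and of 24.9% of all 27025 symbols in the table. It was found for 5 of the 6 called members with an entry and for 24 of the 46 that were not called. The letters CCGGAAG, the core to which ETS family factors such as GABP bind, were searched on both strands over the whole 300 bases of each entry. They were found for 23 of the 52 members, 44.2%, and for 9.93% of all symbols. By call, CCGGAAG was found for 2 of 6 called members and 21 of 46 others. The printed starts lay 0 to 29 bases from the nearest transcript start in GENCODE. The start of Rps2 coincided with one, but lay 1947 bases inside the outermost bound of that gene, so other starts are annotated there. Which starts were used in these cells was not measured, and a missing run in a window says only that these letters are not there.

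Ribosomal genes outside the naming rule were mixed. Of 11 tested, 1 was called lower and 0 higher, with 5 above 0 and a median log2 fold change of -0.26. Fau, which encodes the small subunit protein eS30 fused to a ubiquitin-like part, was called lower. Its level was 43.2, 33.2 and 33.8 CPM in Qpos cells, against 70.1, 49.8 and 49.7 CPM in Qneg cells (log2 fold change -0.61 ± 0.10 SE, adjusted p = 0.0250). Rps27l, a paralog of Rps27 known from human cells as a p53 target, went the other way at 54.0, 31.0 and 34.4 CPM in Qpos cells, against 16.7, 20.6 and 18.8 CPM in Qneg cells, with all Qpos libraries above all Qneg libraries, and narrowly missed the threshold (log2 fold change 1.05 ± 0.27 SE, adjusted p = 0.0521). Rps27rt, a retrogene of Rps27 whose reads may be shared with it, was at 321, 271 and 279 CPM in Qpos cells, against 1196, 452 and 490.1 CPM in Qneg cells and was not called either (log2 fold change -1.15 ± 0.31 SE, adjusted p = 0.0592). Rack1, a scaffold on the small subunit, was at 954, 641 and 661 CPM in Qpos cells, against 1167, 764 and 778 CPM in Qneg cells (log2 fold change -0.26 ± 0.15 SE, adjusted p = 0.251).

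Genes that work around the ribosome were called in both directions, or higher only, beside the 18.5% of all genes called higher and 16.3% called lower. Of 40 translation factors tested, 8 were called higher and 2 lower, with a median log2 fold change of 0.05. Eif5b, which joins the subunits at initiation, was at 41.6, 37.4 and 40.6 CPM in Qpos cells, against 17.3, 17.4 and 16.0 CPM in Qneg cells (log2 fold change 1.24 ± 0.12 SE, adjusted p = 0.0109). The cap-binding protein Eif4e was at 30.7, 33.2 and 36.4 CPM in Qpos cells, against 11.1, 16.2 and 16.7 CPM in Qneg cells, again without overlap (log2 fold change 1.20 ± 0.14 SE, adjusted p = 0.0148). Among elongation factors Eef1b2 was called lower (log2 fold change -0.52 ± 0.12 SE, adjusted p = 0.0412), and Eef2 and Eef1a1, at -0.54 and 0.092, were not called. The other factor called lower was Eif3f, a subunit of the initiation factor eIF3 (log2 fold change -0.64 ± 0.15 SE, adjusted p = 0.0475).

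Of 49 genes of ribosome biogenesis, 10 were called higher and 4 lower, with a median of 0.16. Rrs1, which in yeast helps to build the 5S particle with Rpl5 and Rpl11 into the large subunit, was at 40.3, 31.6 and 30.3 CPM in Qpos cells, against 24.9, 17.6 and 16.9 CPM in Qneg cells (log2 fold change 0.79 ± 0.11 SE, adjusted p = 0.0181). Dkc1, the pseudouridine synthase of the snoRNA particles, fell to 14.5, 13.0 and 12.9 CPM in Qpos cells, against 38.5, 24.5 and 25.1 CPM in Qneg cells (log2 fold change -1.10 ± 0.16 SE, adjusted p = 0.0195). The genes called lower also included Nop56, Polr1e and Riok1, and those called higher Nop14, Utp20 and Heatr1 of the small subunit processome.

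Of 43 growth regulators tested, 10 were called higher and 8 lower, with a median of 0.03. Myc, a transcription factor known to raise ribosomal protein genes, was at 42.7, 8.86 and 8.70 CPM in Qpos cells, against 71.4, 25.4 and 29.9 CPM in Qneg cells (log2 fold change -1.34 ± 0.25 SE, adjusted p = 0.0304). The Rag GTPase Rragd, which recruits mTORC1 to the lysosome, was at 27.8, 29.3 and 30.0 CPM in Qpos cells, against 5.09, 2.44 and 2.75 CPM in Qneg cells (log2 fold change 3.16 ± 0.31 SE, adjusted p = 0.0112). Its relative Rragc was at 297, 314 and 338 CPM in Qpos cells, against 53.1, 92.4 and 88.3 CPM in Qneg cells (log2 fold change 2.06 ± 0.20 SE, adjusted p = 0.0113). Mtor itself was not called (0.028 ± 0.12 SE, adjusted p = 0.869). Larp1, which binds the pyrimidine run of ribosomal protein transcripts, was at 423, 319 and 303 CPM in Qpos cells, against 258, 229 and 224 CPM in Qneg cells, above in every Qpos library but not called (log2 fold change 0.54 ± 0.14 SE, adjusted p = 0.0523).

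Of 17 genes of ribosome quality control and surveillance, 5 were called higher and 0 lower, with a median of 0.23. Ascc2, part of the complex that splits collided ribosomes, was at 110.0, 94.9 and 89.5 CPM in Qpos cells, against 41.5, 39.2 and 39.5 CPM in Qneg cells (log2 fold change 1.29 ± 0.11 SE, adjusted p = 0.0101). Nufip1, which in human cells was described as a receptor for the breakdown of ribosomes by autophagy, was at 30.1, 24.8 and 25.6 CPM in Qpos cells, against 17.4, 12.0 and 12.1 CPM in Qneg cells (log2 fold change 0.97 ± 0.13 SE, adjusted p = 0.0167). The targets of free Rpl5 and Rpl11, Mdm2 and Trp53, were not called, at 0.22 and -0.32. These lists share the 6 libraries with the members, and no test of one list against another was made.

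**Figure D5:**
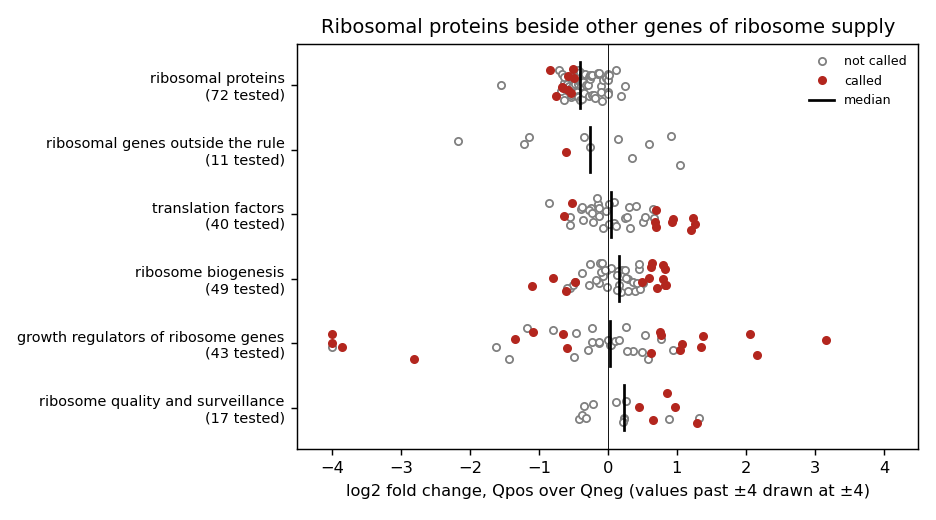
Points are genes, placed by the log2 fold change of Qpos over Qneg on the x axis and grouped by list on the y axis, red where the adjusted p was under 0.05. Black bars are list medians. The ribosomal proteins gather below 0 with a median of -0.40, while the medians of translation factors, biogenesis, growth regulators and surveillance genes lie between 0.03 and 0.23.

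Markers of several other cell types differed between the groups as well, beside 16.3% of all genes called lower and 18.5% called higher. Of 14 B cell markers 12 were called lower in Qpos cells, of 15 T cell markers 13, of 10 NK cell markers 8 and of 14 neutrophil markers 10, and none of these was called higher. Of 12 macrophage markers 7 were called higher and 0 lower. Other cell lists were mixed. Of 12 eosinophil, basophil and mast cell markers 4 were called higher and 8 lower, and of 8 dendritic cell markers 1 higher and 4 lower. Of 11 stromal cell markers 1 was called higher and 2 lower, and of 4 erythroid markers 0 were called. Of 15 proliferation genes 7 were called lower and 0 higher, with summed levels of 526, 395 and 399 CPM in Qpos cells, against 795, 1959 and 1848 CPM in Qneg cells. Ribosomal protein share and B cell marker sum were both highest in Qneg replicate 1, the library with the lowest macrophage marker sum. The neutrophil and proliferation sums were instead highest in Qneg replicates 2 and 3. Summed T cell markers were 25.2, 16.4 and 16.3 CPM in Qpos cells, against 282, 53.8 and 56.4 CPM in Qneg cells, and NK cell markers summed to at most 7.09 CPM in Qpos cells and 101 CPM in Qneg cells. The part of any of these lists in the lower ribosomal protein level was not tested.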

How the data were processed

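The 6 libraries (3 Qpos, 3 Qneg) were grouped by their GEO titles, and the pairing came from the series' design text. Per the labels' protocols, RNA was taken from sorted cells with a column kit and made into libraries with a stranded kit. FastQC, Salmon and mm10 are named, without versions, in the submitters' processing notes. Neither the annotation nor the use of strand in counting is given in the sources used here. In the deposited raw table the authors give an estimated count per gene from Salmon, already rounded to a whole number. The authors' normalized table holds a signal, a raw count times a factor of each gene and library whose formula is not stated, and it served only as an alternative on the log2(value + 1) scale with limma.

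The members and lists were chosen with earlier results of these data known. The named members were a fixed set of well-known genes, those called, the 5 highest and 5 lowest fold changes with 3 pairs of one sign, the 3 highest and 3 lowest levels per length, and those with the largest gap between pair 1 and the others. Of these, 2 members are not reported here. In each list around translation the 2 genes with the lowest p were named by the same rule. Eef1b2, Eef2, Eef1a1, Eif3f, Nop56, Polr1e, Riok1, Nop14, Utp20, Heatr1, Myc, Mtor, Larp1, Mdm2, Trp53, Rack1, Rps27rt and the sums with copies (Rpl23a, Rpl39, Rps7) were chosen after their values were seen.

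Genes were filtered with filterByExpr (minimum count 10, minimum total 15) and scaled by TMM, and 14605 genes were tested in R 4.3.3 with edgeR 4.0.16 (quasi-likelihood F test, replicate number as a block). A call needed an adjusted p (Benjamini-Hochberg, over all genes tested) under 0.05. Standard errors came from the F statistic. CPM used TMM-scaled totals, and log2 fold changes per pair used a prior count of 2. Where nothing says that libraries came from separate mice, p measures only the spread between these libraries. Deviations from the group means correlated at r = 0.20, 0.077 and 0.16 between same-numbered libraries, with 0.15 as the highest value across numbers. Alternatives used DESeq2 1.42.0 and limma 3.58.1. Symbols and coordinates came from GENCODE M21 (GRCm38, the assembly of mm10), in which 21625 gene identifiers were found. Copies were found with blastn 2.17.0. The fits were tested on simulated data.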

Additional observations from a re-analysis of the deposited data

How the results depend on the processing

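Every setting tried kept the members' median below 0. It moved with scaling, to -0.54 with upper quartile factors (large subunit -0.52, small subunit -0.58) and -0.75 on library totals (-0.72 and -0.79). Without a filter on low counts the median minus that of all genes was -0.26. The number of members called lower depended far more on the setting. It was 1 without a filter, beside 9.20% of all genes, and 20 with at least 50 counts in 3 libraries, beside 17.8%. It was 16 by the upper quartile, beside 18.1%, and 34 on library totals, beside 22.7%. DESeq2 called 36, beside 25.1%, and limma-voom called 16, beside 19.5%. With replicates 2 and 3 summed, 0 members and 0 genes of any kind were called. In that edgeR fit 1 member had an unadjusted p under 0.05, beside 28.8% of all genes. Leaving out 1 replicate in turn gave 0 to 48 members lower and 0 to 3 higher. The 48 and 3 came without replicate 1, beside 35.8% of all genes lower and 37.1% higher. Without replicate 2 or replicate 3, 0 members were called, beside 2.10% and 0.00% of all genes. With near-identical copies added and replicate 1 left out, 59 were lower and 3 higher, beside 36.7% and 37.5% of all genes. Without the replicate block 1 member was called lower, beside 20.9% of all genes. Adding named pseudogenes raised the members' share to 2.65%, 1.80% and 1.87% in Qpos cells and to 5.44%, 2.69% and 2.78% in Qneg cells, and adding near-identical copies to 3.50%, 2.35% and 2.39% in Qpos cells and 7.26%, 3.48% and 3.59% in Qneg cells. The causes were not tested beyond the fewer libraries or other scale that each setting uses.

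Among the 34 members chosen by the naming rule, signs turned for 8 under at least 1 setting. Rpl5 was -0.034 with RLE factors, -0.14 with upper quartile factors, -0.35 with library totals, -0.0030 with TMM factors computed without members, -0.057 with at least 50 counts, -0.034 with DESeq2, -0.13 in the authors' table, -0.018 without the block, between -0.17 and 0.24 when leaving out 1 replicate in turn, -0.089 with replicates 2 and 3 summed, -0.023 with named pseudogenes, -0.32 with copies and -0.21 with copies and without replicate 1. Rps25 was -0.035, -0.14, -0.34, -0.0039 and -0.036 under RLE, upper quartile, library totals, TMM without members and DESeq2, -0.011 with limma-voom, between -0.26 and 0.19 when leaving out 1 replicate, -0.061 with named pseudogenes and -0.077 with copies. Rpl3 was -0.029 by the upper quartile and -0.24 on library totals, under which Rpl10 was -0.096 and Rps2 -0.16. Rplp1 was 0.0083 without a filter, Rpl35 0.016 in the authors' table and Rpl36a 0.043 with named pseudogenes.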
